A study of Mus musculus with 6 samples.

Results

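The platelet-derived growth factor (PDGF) ligands and receptors were examined in cultured cardiac fibroblasts (CFs) from wild-type (WT) and CharmeKO mice. The genes were taken by symbol from the deposited expression table and comprise the 4 ligand chains *Pdgfa*, *Pdgfb*, *Pdgfc* and *Pdgfd*, the receptor genes *Pdgfra* and *Pdgfrb*, and the receptor-like gene *Pdgfrl*. These are 7 of the 19446 genes of the table, and all 7 entered the test, which took the 15948 genes that had 10 or more reads in 2 or more libraries. *Charme* is a long non-coding RNA gene of the mouse heart, and the comparison asks how the transcriptome of resident fibroblasts differs when it is knocked out.

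RNA-seq libraries were made from 3 WT and 3 CharmeKO cultures, named here by genotype and by the replicate number of their titles, which give an age of 5 weeks for both genotypes. The study's methods give a range of ages around it for the animals of explant cultures. CharmeKO mice carry an inserted poly(A) signal at the *Charme* locus, in all tissues, on the C57BL/6J background, and WT mice do not. According to the study's methods, CFs of both genotypes were grown out of atrial tissue pieces pooled from littermates, on fibronectin and in medium with serum, and used at early passage, so that they are cells after outgrowth in culture and not fibroblasts as they lie in the tissue. The labels name no treatment for either group beyond this medium. What libraries of the same number share is not given in the labels, so that p-values measure the spread between these libraries only.

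PDGFs are dimeric growth factors for mesenchymal cells. The A and B chains are cut to their active form inside the cell, whereas the C and D chains are secreted as latent proteins whose CUB domain is removed outside the cell. The receptor tyrosine kinase PDGFR-α binds the A, B and C chains and PDGFR-β the B and D chains. In the heart, PDGFR-α marks resident fibroblasts, and PDGFR-β is best known from pericytes and vascular smooth muscle cells, and is also carried by fibroblasts.

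*Pdgfc* and *Pdgfd* are shown by their promoters, because they are the 2 members whose level was lower in the CharmeKO library of every replicate number. The same held for 14.0% of all tested genes, and neither member passed the adjusted threshold. The windows are 300 bases long and run across the transcription start in RefSeq (GRCm38.p6), on the plus strand, at chr3:81036166-81036465 for *Pdgfc* and chr9:6168236-6168535 for *Pdgfd*. Capitals mark the motifs found in a search of both strands for the TATA motif TATAAA, the CCAAT box, the Sp1-type motif GGGCGG and the CArG box.
Pdgfc promoter: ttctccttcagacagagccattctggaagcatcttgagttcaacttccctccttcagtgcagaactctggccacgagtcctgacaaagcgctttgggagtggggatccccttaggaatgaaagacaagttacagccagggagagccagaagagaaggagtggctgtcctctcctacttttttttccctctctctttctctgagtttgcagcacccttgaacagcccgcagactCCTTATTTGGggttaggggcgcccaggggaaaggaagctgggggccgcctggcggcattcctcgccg
Pdgfd promoter: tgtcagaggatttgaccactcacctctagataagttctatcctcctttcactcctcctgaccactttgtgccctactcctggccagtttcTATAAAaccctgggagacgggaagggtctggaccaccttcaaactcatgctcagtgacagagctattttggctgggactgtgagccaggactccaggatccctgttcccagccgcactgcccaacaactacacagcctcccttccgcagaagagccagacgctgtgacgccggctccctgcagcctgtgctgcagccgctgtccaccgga
The *Pdgfc* window held 1 CArG box, which begins 17 bases before the start, and such a box is found in 1.63% of the 32851 promoter windows of the same length. The *Pdgfd* window held 1 TATAAA, which begins 160 bases before the start, a motif found in 13.6% of windows. The CArG box is the known binding motif of serum response factor, and whether it is bound in these cells was not measured. The windows of *Pdgfa*, which has 2 listed starts, held GGGCGG (35.7% of windows), and that of *Pdgfra* held none of the 4 motifs. *Pdgfb*, *Pdgfrb* and *Pdgfrl* have no entry in the promoter table.

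All 7 are protein-coding genes, and their positions are given on GRCm38 (GENCODE M21 annotation, matched by gene identifier). *Pdgfa* (ENSMUSG00000025856) lies at chr5:138976014-138997370 on the minus strand, and *Pdgfb* (ENSMUSG00000000489) at chr15:79995874-80014977, also on the minus strand. *Pdgfc* (ENSMUSG00000028019) lies at chr3:81036416-81214040 and *Pdgfd* (ENSMUSG00000032006) at chr9:6168584-6378850, both on the plus strand. The receptor genes lie on the plus strand as well, with *Pdgfra* (ENSMUSG00000029231) at chr5:75152292-75198215, *Pdgfrb* (ENSMUSG00000024620) at chr18:61045150-61085061 and *Pdgfrl* (ENSMUSG00000031595) at chr8:40926212-40990785. Reads had been counted by strand. Among the antisense genes that overlap a member, 6330403L08Rik over *Pdgfa* had 458 to 1143 reads and Gm42802 over *Pdgfra* 3 to 42 reads per library.

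Levels are given as normalised read counts, that is, the reads assigned to a gene divided by the size factor of the library. Reads assigned to genes totalled 38330019 to 46797446 per library, so that 1 read is worth close to 1 normalised read, and a gene at 0 could have been present at up to 3 reads. The feature CUFF405, taken by inference as the *Charme* entry of the table, had 5, 15 and 11 reads in WT and 0, 6 and 3 in CharmeKO libraries 1 to 3 (two-sided exact permutation test over libraries, p = 0.2, where 0.1 is the smallest p possible). The cultures had the reads of fibroblasts, with 400830 to 783688 reads of *Col1a1*, 12879 to 100585 of *Dcn* and 202 to 1835 of *Tcf21* per library. Markers of other cell types were present too. Among leukocyte and macrophage genes, *Ptprc* had 0 to 265, *Cd68* 107 to 1574 and *Csf1r* 275 to 1505 reads. Of cardiomyocyte genes, *Ryr2* had 0 to 5 and *Tnnt2* 52 to 787 reads, the mesothelial gene *Upk3b* had 302 to 4719, and the endothelial genes *Pecam1* and *Kdr* had 2 to 6 and 28 to 74.

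Compared with each other per kb of exon, the 2 receptor genes and *Pdgfa* were the most abundant members. *Pdgfrb* stood at 4468 normalised reads per kb as a mean over the 6 libraries, followed by *Pdgfra* at 655.4, *Pdgfa* at 623.8, *Pdgfd* at 276.7, *Pdgfc* at 156, *Pdgfrl* at 70.7 and *Pdgfb* at 10.7. *Pdgfrb* was the highest and *Pdgfb* the lowest of the 7 in every library of either genotype. Exon lengths were taken over all annotated transcripts, so that levels per kb are approximate.

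**Figure D1:**
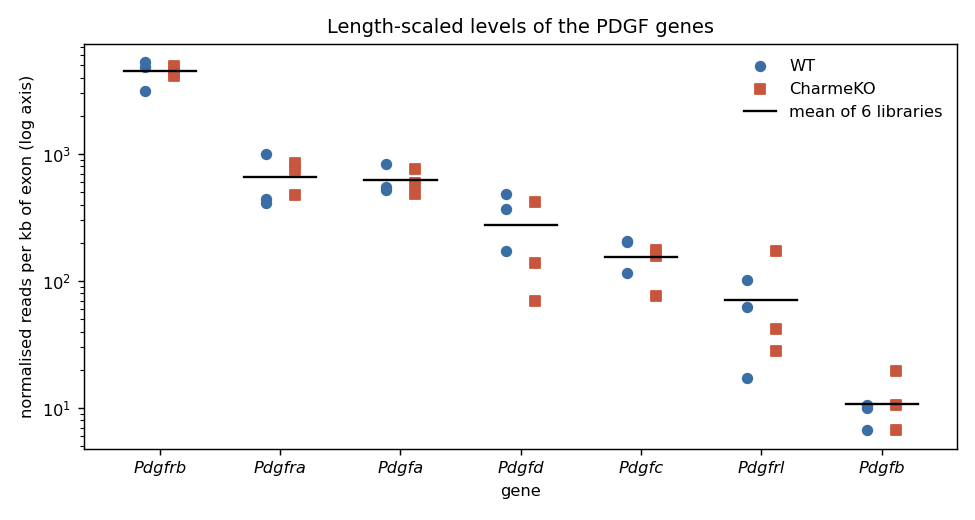
Normalised reads per kb of exon (log axis) of the 7 PDGF genes, ordered by their mean. Each point is a library (circles WT, squares CharmeKO, 3 each) and the line is the mean of all 6. Within each of the 6 libraries *Pdgfrb* lies above and *Pdgfb* below the other members, and neighbours between them overlap.

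Among neighbours in this order, *Pdgfrb* exceeded *Pdgfra* 4.85 to 12.9 times per kb, in 6 of 6 libraries. *Pdgfra* and *Pdgfa* could not be ordered, since *Pdgfra* was the higher in 2 libraries, those numbered 2, and *Pdgfa* in the other 4. *Pdgfa* was above *Pdgfd* in 6 of 6 libraries, by 1.12 to 11.0 times. *Pdgfd* was above *Pdgfc* in 5 libraries and lower in CharmeKO 3, where its level per kb was 0.442 times that of *Pdgfc*. *Pdgfc* in turn was above *Pdgfrl* in 5 libraries, the exception being CharmeKO 2, and *Pdgfrl* was above *Pdgfb* in 6.

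*Pdgfa* was the main ligand transcript of these cultures. It made up 43.7%, 63.9% and 58.7% of the summed ligand level per kb in WT 1, 2 and 3, and 44.0%, 72.4% and 76.6% in CharmeKO 1, 2 and 3. *Pdgfd* accounted for 39.0%, 21.1% and 26.1% in WT and for 38.3%, 17.0% and 6.95% in CharmeKO. *Pdgfc* lay between 9.36% and 16.4%, and *Pdgfb* between 0.672% and 1.77%. The latent chains C and D were thus a larger part of the ligand pool in the libraries numbered 1 than in the others, in both genotypes.

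No member passed the adjusted threshold of 0.05 between CharmeKO and WT (limma on log2(value + 1), adjusted p = 0.9999 for each of the 7). The background was the same, with 0% of 15948 genes past the adjusted threshold and 0.897% (143 genes) at an unadjusted p below 0.05, none of them a member. DESeq2 without a block called 0.0502% of all genes and no member. The fitted value was lower in CharmeKO for 3 members and higher for 4. WT and CharmeKO values overlapped for all 7, against 4.11% of all genes without overlap, and no member reached a log2 fold change of 1 in either direction, against 5.04% of all genes. *Pdgfc* and *Pdgfd* were lower in CharmeKO within all 3 pairs of equal number, where 14.0% of all genes were, and no member was higher in all 3 pairs, where 16.4% of all genes were.

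**Figure D2:**
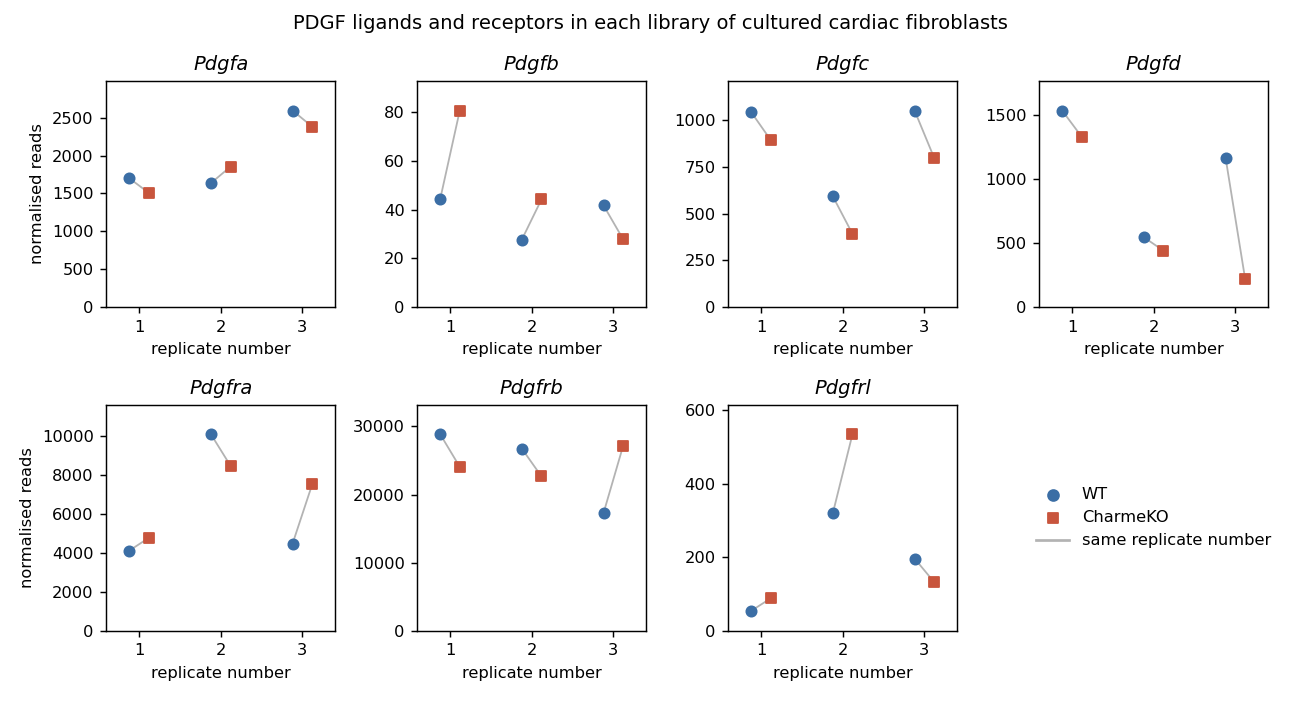
Normalised reads of each PDGF gene (linear axes from 0) by replicate number, with WT as circles, CharmeKO as squares, and a line joining libraries of equal number. *Pdgfc* and *Pdgfd* have the square below the circle at each number, whereas the other 5 genes change direction between numbers.

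*Pdgfa* encodes the A chain, a ligand of PDGFR-α that is cut by furin-type proteases before secretion. It had 1702, 1636 and 2595 normalised reads in WT 1, 2 and 3 and 1507.5, 1854 and 2380.5 in CharmeKO 1, 2 and 3. Both libraries numbered 3 were higher than the other 4, and the groups overlapped over almost their whole range. The means were 1977 ± 535.7 in WT and 1914 ± 439.6 in CharmeKO (SD, n = 3 each), a log2 fold change of -0.04 with a standard error (SE) of 0.26 (limma, unadjusted p = 0.884).

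*Pdgfb*, the B chain, binds both receptors and is best known as the endothelial ligand that recruits pericytes. It had few reads, 45, 26 and 38 reads in WT and 84, 45 and 32 reads in CharmeKO libraries, or 44.3, 27.8 and 41.7 against 80.8, 44.2 and 27.8 normalised reads. CharmeKO 1 stood above the other 5 libraries, and its exact 95% Poisson interval began at 64.4 normalised reads, above the end of that of any of them, at most 59.3. These intervals cover counting error only. The log2 fold change was 0.31 (SE 0.521, limma, unadjusted p = 0.569), and it was -0.08 without CharmeKO 1. Leukocyte and macrophage markers (10 genes) summed to 17538.5 normalised reads in CharmeKO 1, the highest sum of the 6 libraries, and to 1023.7 to 12859 in the others. *Lyz2* carried this sum, at 12790.9 normalised reads in CharmeKO 1, whereas *Cd14*, at 166.3, was lower there than in any library but WT 1. CharmeKO 1 also had the highest sums of endothelial (396.1), mesothelial (14839.7) and cardiomyocyte (799.0) markers. Single markers of these lists differed in this. *Tek*, *Vwf*, *Upk3b*, *Lrrn4* and *Tnnt2* were highest in CharmeKO 1, whereas *Kdr* was highest in WT 2, and *Egfl7*, *Wt1* and *Tnni3* in CharmeKO 2. The part of these cell types in the *Pdgfb* level was not tested.

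*Pdgfc* encodes the C chain, secreted in latent form by mesenchymal cells and acting on PDGFR-α. Its level was 1042, 591.5 and 1050.3 normalised reads in WT 1, 2 and 3 and 892.2, 391.3 and 796.7 in CharmeKO 1, 2 and 3. Each CharmeKO library was below the WT library of its number, by -0.22, -0.60 and -0.40 log2 units, and the libraries numbered 2 were the lowest of either genotype. The log2 fold change was -0.41 (SE 0.394, unadjusted p = 0.34, limma). With the replicate number as a block the SE was 0.126 and the unadjusted p 0.0278, with an adjusted p of 0.7997 (limma). In DESeq2 with the block the unadjusted p was 0.0304 and the adjusted p 0.6824. *Pdgfc* was the 1 member of 7 below an unadjusted p of 0.05 in the blocked limma fit, where 5.37% of all genes were (3.23% lower and 2.14% higher in CharmeKO). Without CharmeKO 2, which leaves WT 2 without its pair, the fit without a block gave a log2 fold change of -0.04.

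*Pdgfd*, the D chain, is a latent ligand of PDGFR-β and had the widest difference of the 7 between genotypes. It was measured at 1535, 545.6 and 1167 normalised reads in WT 1, 2 and 3 and at 1329.7, 440.4 and 218.3 in CharmeKO 1, 2 and 3. Libraries WT 1, WT 3 and CharmeKO 1 were high and the other 3 low, so that the groups overlapped. Pairs 1, 2 and 3 differed by -0.21, -0.31 and -2.41 log2 units, the last being the largest pair difference of any member. The means of 1082.5 ± 500.2 in WT and 662.8 ± 588.1 in CharmeKO (SD, n = 3 each) gave a log2 fold change of -0.98 (SE 0.705, limma, unadjusted p = 0.211). CharmeKO 3 carried much of this value, which was -0.37 without it, and the value was -1.67 without CharmeKO 1. The unadjusted p was 0.112 in limma with the block and 0.0454 in DESeq2 with the block (adjusted p = 0.7826).

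Levels of *Pdgfd* can be set beside those of mural cell markers, since smooth muscle cells are a known source of this ligand. The 11 pericyte and smooth muscle markers summed to 139806, 32234 and 244558 normalised reads in WT 1, 2 and 3 and to 132670.3, 11304 and 31779.6 in CharmeKO 1, 2 and 3. The 3 libraries with the lowest sums, CharmeKO 2, CharmeKO 3 and WT 2, were also the 3 with the lowest *Pdgfd*. This sum is carried by *Acta2* and *Tagln*, which activated fibroblasts also express, at 96903 and 39661 normalised reads in WT 1. The pericyte markers *Rgs5*, *Kcnj8*, *Abcc9* and *Notch3* were highest in WT 2 instead, at 997.2, 66.2, 18.1 and 4166 normalised reads, a library with little *Pdgfd*. CharmeKO 3 had the least *Pdgfd*, yet *Myh11*, *Mcam* and *Des* were higher there than in any library but WT 3. They were at 271.4, 278.3 and 1068.9 normalised reads in CharmeKO 3, whereas *Cspg4* was at its lowest there, at 25.2. Of the 11 markers, 11 had a lower fitted value in CharmeKO, as did 49.6% of all genes, although *Notch3* hardly differed (log2 fold change -0.0047). By pair, the median of the list was -0.12, -2.27 and -2.92 log2 units in pairs 1, 2 and 3. In all 3 pairs 8 of the 11 were lower, where 14.0% of all genes were, and 0 passed the adjusted threshold in limma. In the DESeq2 fit with the replicate block 1 passed, the smooth muscle myosin gene *Myh11*, named after its values were seen (log2 fold change -1.93, adjusted p = 0.000603). That fit called 0.401% of all genes, whereas limma and edgeR with the same block called 0. The study lists *Myh11* among the most significant genes of its own comparison of cultured CFs, and measured it by real-time PCR. *Abcc9* was at 0 reads in CharmeKO 3, and *Myh11* had 37 to 1415 and *Rgs5* 32 to 934 reads. In bulk cultures, fewer cells of a type and less RNA per cell cannot be told apart, and the part of mural cells in the *Pdgfd* values was not tested.

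**Figure D3:**
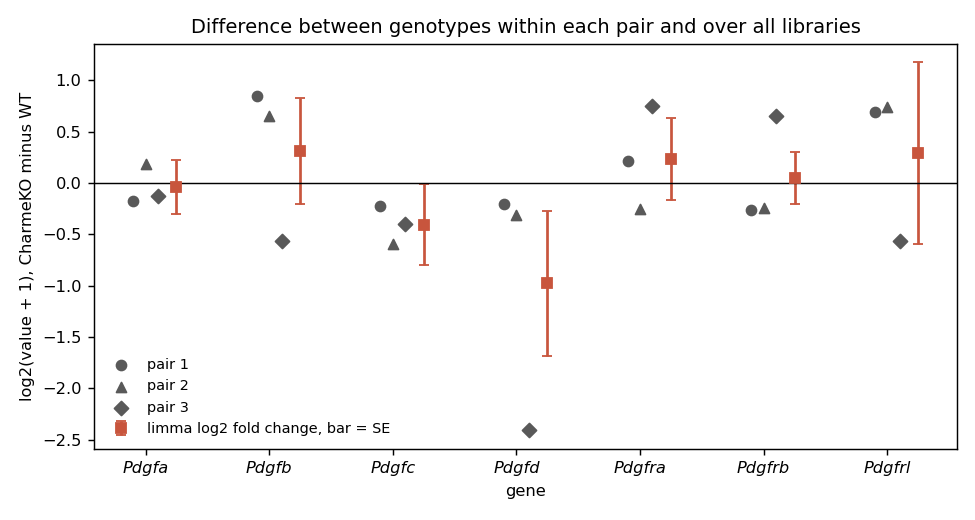
Difference between CharmeKO and WT on the log2(value + 1) scale for each PDGF gene. Grey symbols are the 3 pairs of equal replicate number, and the square with its bar is the limma log2 fold change ± SE over all 6 libraries. Pair 3 of *Pdgfd* lies at -2.41, and the bars of all genes other than *Pdgfc* and *Pdgfd* cross 0.

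*Pdgfra*, the fibroblast receptor, ranked at percentile 92.5 of all tested genes by its mean normalised reads, a rank not corrected for gene length. It had 4109.6, 10084 and 4476 normalised reads in WT 1, 2 and 3 and 4767, 8466 and 7515.5 in CharmeKO 1, 2 and 3. WT 2 and CharmeKO 2 were the highest libraries of their genotype, and WT 1 was the lowest of all. The means were 6223 ± 3349 in WT and 6916 ± 1921 in CharmeKO (SD, n = 3 each), with a log2 fold change of 0.24 (SE 0.401, limma, unadjusted p = 0.575). Without WT 1 the fold change was 7.66e-05, and without WT 2 it was 0.65. The summed level of 12 fibroblast markers ran from 1083234 normalised reads in WT 1 to 2209278 in WT 2, and it placed the 6 libraries in the same order as *Pdgfra* (WT 1, WT 3, CharmeKO 1, CharmeKO 3, CharmeKO 2, WT 2). *Col1a1*, *Col1a2* and *Col3a1* carried this sum, with 394739.5, 215275.5 and 215212 normalised reads in WT 1. Other markers of the list did not follow that order, with *Vim* at 206040.0 normalised reads in WT 1, 85742 in WT 2 and 60556 in CharmeKO 2, and *Tcf21* at 1477 in WT 1 and 198.6 in CharmeKO 2. The part of fibroblast content in this order was not tested.

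*Pdgfrb*, the receptor of the B and D chains, was among the most abundant transcripts, at percentile 98.8 by mean normalised reads. It was at 28861, 26737 and 17317 normalised reads in WT 1, 2 and 3 and at 24065, 22663 and 27193 in CharmeKO 1, 2 and 3. WT 3 was the lowest library, and the other 5 lay close together. Over all 6 libraries its highest value was 1.67 times its lowest, the narrowest range of the 7 genes. The means of 24305 ± 6144 in WT and 24640.4 ± 2319 in CharmeKO (SD, n = 3 each) gave a log2 fold change of 0.05 (SE 0.257, limma, unadjusted p = 0.851), and without WT 3 it was -0.18. WT 3 had the highest sum of pericyte and smooth muscle markers, whereas WT 1, with the most *Pdgfrb*, had the next highest, and CharmeKO 2, with the lowest sum, had the next lowest *Pdgfrb* after WT 3.

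The balance of both receptors was compared within libraries, which removes the scaling between them. The log2 ratio of *Pdgfra* to *Pdgfrb* normalised reads, not corrected for length, was -2.81, -1.41 and -1.95 in WT 1, 2 and 3 and -2.34, -1.42 and -1.86 in CharmeKO 1, 2 and 3. *Pdgfrb* reads were thus more numerous in all 6 libraries, and the ratio was nearest to 0 in those numbered 2. The mean was -2.06 ± 0.708 in WT and -1.87 ± 0.458 in CharmeKO (SD, n = 3 each), a difference of 0.19 that did not exceed the spread (two-sided exact permutation test, p = 0.7, where 0.1 is the smallest possible).

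*Pdgfrl* encodes a protein that resembles the extracellular part of the PDGF receptors and has no kinase domain. It had 54.2, 320.3 and 196.6 normalised reads in WT 1, 2 and 3 and 88.5, 534.8 and 132.2 in CharmeKO 1, 2 and 3. The libraries numbered 2 were highest and those numbered 1 lowest in both genotypes, and the highest of the 6 values was 9.87 times the lowest, the widest range of the 7 genes. The log2 fold change was 0.29 (SE 0.887, limma, unadjusted p = 0.755), with pair differences of 0.70, 0.74 and -0.57 log2 units. Without CharmeKO 2 it was -0.48, and without WT 1 it was -0.44.

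For all 7 members the replicate number held more of the variance than the genotype. The number has more levels than the genotype, so that its share tends to be the larger even without any effect. In a split of the variance of log2 values over the 6 libraries, genotype held 0.474% for *Pdgfa*, 1.06% for *Pdgfrb*, 1.72% for *Pdgfrl*, 5.63% for *Pdgfra*, 9.51% for *Pdgfb*, 16.2% for *Pdgfc* and 23.6% for *Pdgfd*. The median over all tested genes was 5.91%. The replicate number held 92.0% for *Pdgfa*, 90.7% for *Pdgfrl*, 81.6% for *Pdgfc*, 77.5% for *Pdgfra*, 52.1% for *Pdgfb* and 50.8% for *Pdgfd*, and 22.7% for *Pdgfrb*. It thus held more than genotype and remainder together for 6 of 7 members, as it did for 73.8% of all genes. *Pdgfc* had the smallest remainder of the members, at 2.26%, and *Pdgfrb* the largest, at 76.2%.

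**Figure D4:**
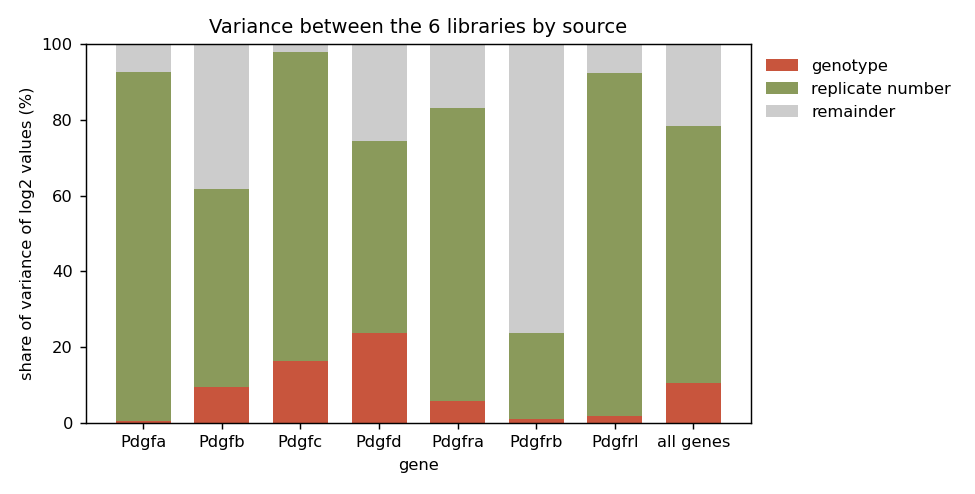
Share of the variance of log2 values (percent) between the 6 libraries that goes with genotype, with replicate number and with neither, for each PDGF gene and for the summed variance of all tested genes. The replicate number is the widest band for 6 of the 7 genes, and for *Pdgfrb* the remainder is, at 76.2%.

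Other transcripts followed the members across libraries closely, as a description over 6 libraries that are tied to each other by genotype and number. Among tested genes with a mean of at least 100 normalised reads, the log2 levels most like those of *Pdgfa* were *Plagl2* (r = 0.987), *Plag1* (0.9866) and *Traf4* (0.983). Those most like *Pdgfc* were *Pcsk7* (0.9988), *Diaph1* (0.9976) and 4930579G24Rik (0.9942), and for *Pdgfd* they were *Dctn6* (0.9985), *Snx30* (0.9947) and *Arhgef28* (0.9935). *Pdgfra* was followed by the collagen gene *Col6a1* (0.9955), *Rnase4* (0.9931) and *Abca9* (0.9921), *Pdgfrb* by *Gbgt1* (0.9768), *Ubn1* (0.9724) and *Tcf7l1* (0.9701), and *Pdgfrl* by *Slc27a3* (0.9924), *Bcl6* (0.9923) and *Tbkbp1* (0.9898). For *Pdgfb*, the nearest were the ribosomal protein gene *Rps19* (0.9838) and *Adprs* (0.9828). A coefficient of at least 0.95 was reached by 8 genes for *Pdgfrb*, 19 for *Pdgfa* and 24 for *Pdgfb*, and by up to 202 for *Pdgfc*, of 11582 or 11583 genes compared.

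The surrounding pathway was read from 5 lists chosen by function. The list of ligand-activating proteases and extracellular modulators held 19 tested genes, of which 0 passed the adjusted threshold (limma), and 13 had a lower and 6 a higher fitted value in CharmeKO, with a median log2 fold change of -0.13 beside 0.00217 over all tested genes. By pair, the median of the list was 0.03, 0.08 and -0.97 log2 units in pairs 1, 2 and 3. Of the 19, 6 were below WT in all 3 pairs and 3 above it (14.0% and 16.4% of all genes). *Furin*, the convertase of the A and B chains, had a log2 fold change of -0.13 (SE 0.278). *Plat*, the tissue plasminogen activator that activates the C chain, was at 2409.8, 6792 and 2632 normalised reads in WT and 3067, 7293 and 7689 in CharmeKO libraries 1 to 3. The CharmeKO library was the higher of each pair, the groups overlapped, and the log2 fold change was 0.67 (SE 0.519).

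*Plau*, the urokinase known to activate the D chain, was measured at 621.4, 738.8 and 4362.5 normalised reads in WT and 669.2, 1510.1 and 912.4 in CharmeKO. WT 3 stood apart above the other 5 libraries, and the log2 fold change was -0.37 (SE 0.764). *Nrp1*, a co-receptor, had a log2 fold change of -0.30 (SE 0.49), and the matrix protein gene *Sparc*, whose product binds PDGF, had 0.09 (SE 0.364). *Cspg4*, which encodes the pericyte proteoglycan NG2 and binds the A chain, was at 450.1, 675.9 and 3663 normalised reads in WT and 241.3, 105.2 and 25.2 in CharmeKO. It was the 1 gene of this list whose groups did not overlap, against 4.11% of all genes, and the only one of the list below 0.05 before adjustment (unadjusted p = 0.0127, adjusted p = 0.9999, limma). *Cspg4* is also 1 of the 11 pericyte and smooth muscle markers.

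**Figure D5:**
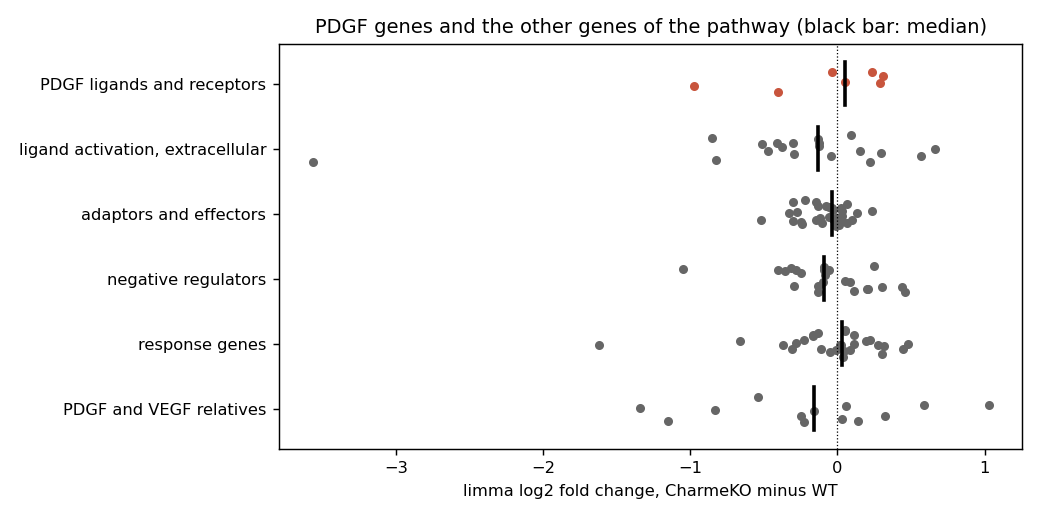
Limma log2 fold changes (CharmeKO minus WT) of the 7 PDGF genes and of the tested genes of the 5 pathway lists, 1 point per gene, with a black bar at each median. The medians of the 5 lists lie between -0.16 and 0.03, and *Cspg4* is the point at -3.57.

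Receptor adaptors and effectors carry the signal from the phosphorylated receptor to the PI3K, MAP kinase and STAT pathways. Of 33 genes, 22 had a lower and 11 a higher fitted value, at a median log2 fold change of -0.03. In all 3 pairs 10 were lower, where 14.0% of all genes were, and 3 were higher, where 16.4% of all genes were. In limma 0 passed the adjusted threshold or an unadjusted p of 0.05. The phosphatase gene *Ptpn11* (SHP2) had a log2 fold change of -0.15 (SE 0.317), *Plcg1* of -0.03 (SE 0.217), *Src* of -0.30 (SE 0.209), the PI3K subunit gene *Pik3r1* of 0.07 (SE 0.418) and *Akt1* of -0.27 (SE 0.361). The kinase gene *Mapk3* had a log2 fold change of -0.01 (SE 0.341). WT and CharmeKO did not overlap for 2 of the 33 genes, where 4.11% of all genes had no overlap. These were the kinase genes *Fyn* and *Braf*, named here after their values were seen. Their log2 fold changes were -0.52 (SE 0.238) and -0.33 (SE 0.151), both lower in CharmeKO, with unadjusted p of 0.0676 and 0.0673 (limma).

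Negative regulators of the receptors comprised 23 genes, with 14 lower and 9 higher, a median log2 fold change of -0.09 and 0 past the adjusted threshold (limma). *Cbl*, the ubiquitin ligase that marks activated receptors for degradation, had 3286, 3896 and 5131.5 normalised reads in WT 1, 2 and 3 and 2411, 2967 and 3972 in CharmeKO. The CharmeKO library was lower by -0.45, -0.39 and -0.37 log2 units in pairs 1, 2 and 3, although the groups overlapped, and the fold change was -0.40 (SE 0.255, or 0.0805 with the block, for which the unadjusted p was 0.00564 and the adjusted p 0.7997 in limma). *Ptprk*, a receptor-type phosphatase gene, had 2978, 2290.2 and 4556 normalised reads in WT and 2202, 962.5 and 1646 in CharmeKO 1, 2 and 3, with no overlap. Its log2 fold change was -1.05 (SE 0.378, limma, unadjusted p = 0.0291, adjusted p = 0.9999), and it was the 1 gene of the 5 lists past the adjusted threshold in the blocked DESeq2 fit (log2 fold change -1.06, adjusted p = 0.0209), which called 0.401% of all genes.

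The other gene of this list without overlap was the MAP kinase phosphatase gene *Dusp5*, with a log2 fold change of -0.36 (SE 0.159), named after its values were seen. Thus 2 of the 23 genes had no overlap, where 4.11% of all genes had none. *Ptpn12* had a log2 fold change of -0.06 (SE 0.261), *Spry2*, an inhibitor of receptor signalling, of 0.30 (SE 0.311) and the MAP kinase phosphatase gene *Dusp6* of 0.20 (SE 0.378).

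Genes that respond to growth factors within hours followed the replicate number, which held a median of 86.0% of the variance over this list and of 73.8% over all tested genes. This was not particular to the list, with 86.4% over the receptor adaptors and effectors and 96.3% over proliferation markers. The other pathway lists had 53.6% to 69.2%. Of 28 genes, 12 had a lower and 16 a higher fitted value in CharmeKO, and the median log2 fold change was 0.03. Of these, 0 lacked overlap, where 4.11% of all genes did, and 0 passed the adjusted threshold or an unadjusted p of 0.05 (limma). *Fos* was at 3839.8, 28329 and 3709 normalised reads in WT 1, 2 and 3 and 3660.2, 36008 and 8271 in CharmeKO. *Egr1* was measured at 11472, 84736 and 16730.5 in WT, against 12021, 71957 and 22494 in CharmeKO. Both immediate early transcription factor genes were highest in the libraries numbered 2, the same that had the highest normalised levels of *Pdgfra* and *Pdgfrl* and the lowest of *Pdgfc* in their genotype. Their log2 fold changes were 0.48 (SE 1.08) and 0.09 (SE 0.926). *Myc* had a log2 fold change of -0.11 (SE 0.244), and the chemokine genes *Ccl2* and *Cxcl1* had -0.05 (SE 0.771) and 0.05 (SE 1.24).

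The summed level of 8 proliferation markers was lowest in the libraries numbered 2, with WT 2 at 7549 and CharmeKO 2 at 6916 normalised reads, and lay between 17124 and 21341 in the other 4. Whether the state of growth had a part in the *Pdgfra*, *Pdgfrl* and *Pdgfc* values of these libraries was not tested.

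Relatives of the PDGFs and their receptors in the VEGF and class III receptor families completed the picture with 13 genes, 7 lower and 6 higher, at a median log2 fold change of -0.16, with 0 past the adjusted threshold (limma). *Vegfa* had a log2 fold change of 0.14 (SE 0.159), the receptor gene *Flt1* of -0.54 (SE 0.586), *Csf1* of -0.22 (SE 0.622) and *Kit*, at 4 to 63 reads per library, of -0.16 (SE 1.13). *Vegfd*, a fibroblast-derived lymphatic growth factor gene, was at 9590.0, 37674 and 6501.5 normalised reads in WT and 11878, 36760.0 and 45635.5 in CharmeKO. WT 2, CharmeKO 2 and CharmeKO 3 were high and the other 3 low, the same split as for *Pdgfra*, and the log2 fold change was 1.03 (SE 0.78). *Vegfc* was the 1 gene of the 13 without overlap, where 4.11% of all genes had none, and was named after its values were seen. It was at 1106, 1061 and 994.2 normalised reads in WT and 1437, 1878 and 1478 in CharmeKO. Its log2 fold change was 0.59 (SE 0.174, limma, unadjusted p = 0.0126, adjusted p = 0.9999).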

How the data were processed

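Poly(A) RNA of cultured CFs was sequenced with a directional kit in 3 WT and 3 CharmeKO cultures. The authors aligned reads with STAR, counted them per gene on the reverse strand and normalised with DESeq2. The table deposited by the authors thus holds a normalised read signal, gene reads divided by a size factor per library. GRCm39 and GRCh38 are listed in the submitters' processing notes. Coordinates here are those of GRCm38, by gene identifier.

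Values were divided by the smallest positive value of their library, and 100% of 116676 came out whole (tolerance 1e-06, largest deviation 6.29e-09). On these reads edgeR 4.0.16 called 0 genes, DESeq2 1.42.0 called 8, and DESeq2 with a replicate block called 64.

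CharmeKO and WT were compared with limma 3.58.1 (R 4.3.3, mean-variance trend) on log2(value + 1), which understates the change of low genes, with genotype as the only term and Benjamini-Hochberg adjustment over 15948 genes. Single values were compared by exact permutation. Tests were two-sided. Deviations of same-numbered libraries correlated across genes with r = 0.762, 0.514 and 0.217 for numbers 1, 2 and 3 (differently numbered, -0.643 to 0.222). All same-numbered pairs exceeded 0.1, so numbers were taken to pair libraries. WT 2 with CharmeKO 3 exceeded it too, at 0.222 beside 0.217 for number 3, so that this rule does not set pair 3 apart. The labels do not say what the pairs share.

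Genes named are the 7 members, a set of pathway genes chosen by role, any pathway gene past the threshold in any fit and the 3 genes most like each member. Others are said to be named after their values were seen, and some genes of this rule are not reported here. Members and lists were chosen with earlier results of these data known. Native CFs were not analysed here. Plots were drawn with Matplotlib 3.10.9.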

Additional observations from a re-analysis of the deposited data

How the results depend on the processing

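No PDGF gene passed the adjusted threshold under any of 18 alternatives, which covered edgeR and DESeq2 on recovered reads, other scalings, pseudocounts and filters, the replicate number as a block, and each library left out in turn. Over all genes, 8 passed with DESeq2 (6 of them lower in CharmeKO) and 64 with DESeq2 and the replicate block (38 lower), of which 1 was a pathway gene, *Ptprk*. In the other 16 alternatives 0 passed. The cause was not tested. The block moved no fold change of a member across 0 and changed no other call of a member or pathway gene. Under it, the pairwise exact test of the *Pdgfra* to *Pdgfrb* ratio gave a difference of 0.186 with p = 0.5, where 0.25 is the smallest possible.

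Leaving out 1 library at a time changed directions. The log2 fold change of *Pdgfa* then lay between -0.21 and 0.17 (above 0 without WT 3 or CharmeKO 1), that of *Pdgfb* between -0.0807 (without CharmeKO 1) and 0.67, that of *Pdgfrb* between -0.18 and 0.19 (below 0 without WT 3 or CharmeKO 3) and that of *Pdgfrl* between -0.48 and 0.83. The difference in the *Pdgfra* to *Pdgfrb* log2 ratio lay between -0.191 and 0.511, below 0 without WT 1 or CharmeKO 2. *Pdgfc* (-0.68 to -0.04), *Pdgfd* (-1.67 to -0.37) and *Pdgfra* (7.66e-05 to 0.65) kept their sign in these fits, in which a group of 2 libraries is assumed to vary like the group of 3. The deposited table gives *Pdgfb* 26 to 84 reads per library, the fewest of the members, so that its counting error is the widest.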
